A study of Mus musculus with 16 samples.

Results

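Combination treatment was compared with placebo in 8 of the 16 tumours of the series. The 4 Combination tumours came from mice given cabozantinib by mouth at 30 mg/kg each day together with J43, a hamster antibody against mouse PD-1. The antibody went in by 5 injections at 10 mg/kg, 1 every 3 days. The 4 Placebo tumours came from mice that received hamster IgG on the antibody's dose and schedule, and the sources used here do not say whether they also took an oral vehicle. In both groups 5000000 cells of Hepa1-6, a mouse hepatocellular carcinoma line, had been placed in 50% Matrigel under the right flank skin of male C57BL/6 mice aged 5 weeks. Mice entered the groups at random once tumours measured 200 to 300 cubic mm, and all were killed on day 14. The samples were chosen by their treatment labels, and each of 17097 genes is represented by its brightest probe set. The model is 1 cell line at 1 site outside the liver, and each array read the RNA of a whole tumour. The 5 Cabozantinib and 3 AntiPD1 tumours entered the fit and are used below to show where the pair differed from a single drug.

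Cabozantinib blocks several receptor tyrosine kinases, chief among them the VEGF receptors of blood vessels, MET, AXL and the mast cell receptor KIT. PD-1 is a receptor that restrains activated T cells, and antibodies against it lift that restraint. A growing tumour holds cancer cells together with vessels, fibroblasts, macrophages, granulocytes and lymphocytes of the host, and its RNA is a mixture from all of them. In such a mixture, fewer cells of a type and less RNA per cell cannot be told apart. The liver origin of the tumours was checked on 2 markers. Alb, which encodes albumin, had a mean log2 signal of 13.17 ± 0.03 (SD, n = 4) in Placebo and 12.95 ± 0.12 (SD, n = 4) in Combination, and Afp, the fetal liver protein, had 12.66 ± 0.03 (SD, n = 4) and 12.50 ± 0.09 (SD, n = 4). Both lay near the top of the scale in all 8 tumours. Skin was little represented, since 12 of 15 keratinocyte genes had means under 4.92 in both groups. That value is the lowest array median, and a mean under it is not shown to be above background.

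Many genes differed between the groups, and most of the calls were lost when 1 of a few tumours was left out. At an adjusted p under 0.05 (limma with Benjamini-Hochberg adjustment over all genes), 1771 genes, or 10.4%, differed between Combination and Placebo. Of these, 635 rose (3.71% of all genes) and 1136 fell (6.64%). These shares are the background for the counts of list members below, and a count near them is not read as a result about a list. Of the called genes, 242 rose by more than 1 on the log2 scale, which is a doubling, and 89 fell by more than 1. Every Combination tumour lay above every Placebo tumour for 1358 genes (7.94%) and below for 2213 (12.9%), and 1581 of the called genes did not overlap in this way. The median log2 difference of all genes was -0.02, and centring each array on its median moved it to -0.13, so differences of about that size move with the choice of scale. The 1771 calls became 61 without Placebo replicate 2 and 42 without Combination replicate 2. They became 255 and 370 without Placebo replicates 4 and 3, 1058 and 1145 without Combination replicates 1 and 3, and 1124 without AntiPD1 replicate 1. In Placebo replicate 2 the array median was the lowest of the 16. So were its hybridisation controls (9.31) and labelling controls (7.54), and the excess of signal at the 3' end of Actb over its 5' end, a measure that grows with RNA breakdown, was the highest of the 16 (0.539). The part of these values in the results was not tested. In the same array the macrophage, neutrophil, T cell checkpoint and complement lists had their lowest Placebo level. Nothing in the labels says how tumours were spread over scans or days, and the p-values measure the spread between these tumours.

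**Figure D1:**
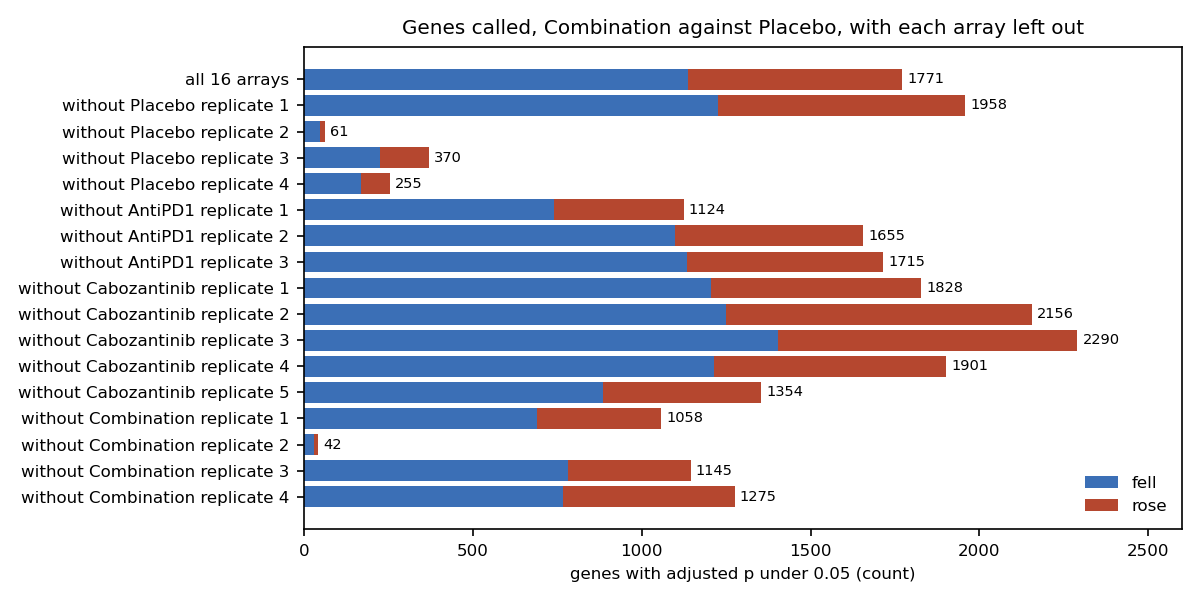
Number of genes with a limma adjusted p under 0.05 for Combination against Placebo, with all 16 arrays and with each array left out in turn; blue is the part that fell and red the part that rose. The count was 1771 with all arrays, 61 without Placebo replicate 2 and 42 without Combination replicate 2.

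In all, 34 genes were called whichever of the 8 Placebo and Combination arrays was left out, and 26 of these fell and 8 rose. They are named here for that property, seen after the fits were run. The falls included vessel genes, a mast cell protease and genes of hepatocytes, and the rises included a macrophage product, an antibody segment and genes of glycogen storage. In what follows, the values of a group are log2 signals in the order of replicates 1 to 4.

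The largest of these falls in a vessel gene was that of Gpihbp1, which holds lipoprotein lipase on the capillary wall. It read 6.98, 6.74, 7.72 and 7.34 in Placebo and 4.75, 4.36, 4.95 and 5.11 in Combination. The groups stood 1.63 apart at their nearest tumours, and Gpihbp1 fell by 2.40 ± 0.28 (SE; adjusted p = 0.00303) to a mean of 4.79, which is not above background. Esm1, a product of the tip cells that lead new vessel sprouts, read 6.11, 6.85, 6.70 and 7.25 in Placebo and 5.11, 4.45, 4.90 and 4.78 in Combination. All 4 Combination tumours lay below the lowest Placebo tumour, and Esm1 fell by 1.92 ± 0.22 (adjusted p = 0.00303), again to background. Apold1, a gene of activated endothelium, read 6.56, 6.48, 6.56 and 7.0 in Placebo and 5.33, 5.65, 5.41 and 5.61 in Combination. It fell by 1.15 ± 0.16 (adjusted p = 0.00789) with a gap of 0.83 between the nearest tumours. Kcnj8, the pore subunit of the potassium channel of pericytes, read 8.62, 8.49, 8.39 and 8.54 in Placebo and 7.52, 7.17, 7.50 and 7.65 in Combination. It fell by 1.05 ± 0.13 (adjusted p = 0.00412). The nearest tumours of the groups were 0.75 apart.

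Other large falls were in secreted proteins and enzymes. Serpind1, which encodes the plasma thrombin inhibitor heparin cofactor II, read 7.22, 8.82, 8.55 and 9.11 in Placebo and 4.94, 5.06, 5.60 and 6.47 in Combination. The highest Combination tumour, replicate 4, stayed below the lowest Placebo tumour, and the fall was 2.91 ± 0.46 (adjusted p = 0.0123). Ddc, the decarboxylase that makes dopamine and serotonin, read 8.19, 9.13, 8.83 and 8.84 in Placebo and 6.45, 6.55, 7.01 and 7.38 in Combination and fell by 1.90 ± 0.29 (adjusted p = 0.0103). Its second probe set differed by -0.08, so the size of the change rests on 1 probe set. Acot1, a thioesterase of fatty acyl-CoA, read 7.26, 7.94, 7.83 and 7.79 in Placebo and 6.01, 6.11, 5.88 and 6.15 in Combination and fell by 1.67 ± 0.27 (adjusted p = 0.0123). Slc16a12, a transporter of the monocarboxylate family, read 8.69, 8.74, 8.95 and 8.79 in Placebo and 7.09, 7.16, 7.39 and 7.40 in Combination. The values within a group spanned at most 0.31, and the fall was 1.54 ± 0.22 (adjusted p = 0.00875). Lect2, a protein secreted by hepatocytes, fell by 1.16 ± 0.17, and Amacr, a racemase of branched fatty acid breakdown, fell by 0.94 ± 0.14. The other genes of this set that fell were Kcnk5, Rapgef3, Sult1c2, Slc44a3, Pir, Adamts4, Myo6, Cyp11a1, Galnt4, Frk, Eva1b, Ccdc18, Rell1 and Fnbp1l, by between 0.45 and 1.39. Among them Kcnk5 is a potassium channel, Rapgef3 a cAMP sensor, Adamts4 a protease that cuts aggrecan and Cyp11a1 the enzyme that opens steroid synthesis from cholesterol. The Combination means of Sult1c2, Cyp11a1 and Ccdc18 were not above background, and neither was the Placebo mean of Ccdc18. Hsd17b7, of cholesterol synthesis, and the mast cell protease gene Mcpt2 complete the 26 and are described with their lists.

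Retnla, a secreted product of alternatively activated macrophages, read 8.45, 6.80, 7.81 and 8.96 in Placebo and 11.69, 11.47, 12.18 and 11.25 in Combination. The lowest Combination tumour was 2.30 above the highest Placebo tumour, and the rise was 3.65 ± 0.61 (adjusted p = 0.0135). Igkv14-111, a variable segment of antibody light chains, read 4.35, 3.92, 4.70 and 4.42 in Placebo and 6.75, 7.11, 7.63 and 7.74 in Combination. It was not above background in any Placebo tumour and rose by 2.96 ± 0.35 (adjusted p = 0.00303). Cd209f, a lectin receptor of the DC-SIGN family, rose by 1.68 ± 0.27, and Wfs1, a membrane protein of the endoplasmic reticulum, rose by 1.43 ± 0.22. The Placebo mean of Cd209f, 4.86, was not above background. Kif1b, a motor protein that carries organelles along microtubules, read 7.37, 7.33, 7.41 and 7.25 in Placebo and 8.22, 8.50, 8.25 and 8.13 in Combination and rose by 0.93 ± 0.11 (adjusted p = 0.00303), and Mfhas1 rose by 0.72 ± 0.11. Gbe1, the branching enzyme of glycogen, read 5.99, 5.57, 6.01 and 5.58 in Placebo and 6.85, 7.09, 6.62 and 6.92 in Combination. Its groups did not overlap, and it rose by 1.08 ± 0.15 (adjusted p = 0.00875). Ppp1r3b, which targets a phosphatase to glycogen and so activates its synthesis, read 7.72, 7.58, 7.54 and 7.58 in Placebo and 8.44, 8.43, 8.31 and 8.27 in Combination and rose by 0.75 ± 0.11 (adjusted p = 0.00875).

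**Figure D2:**
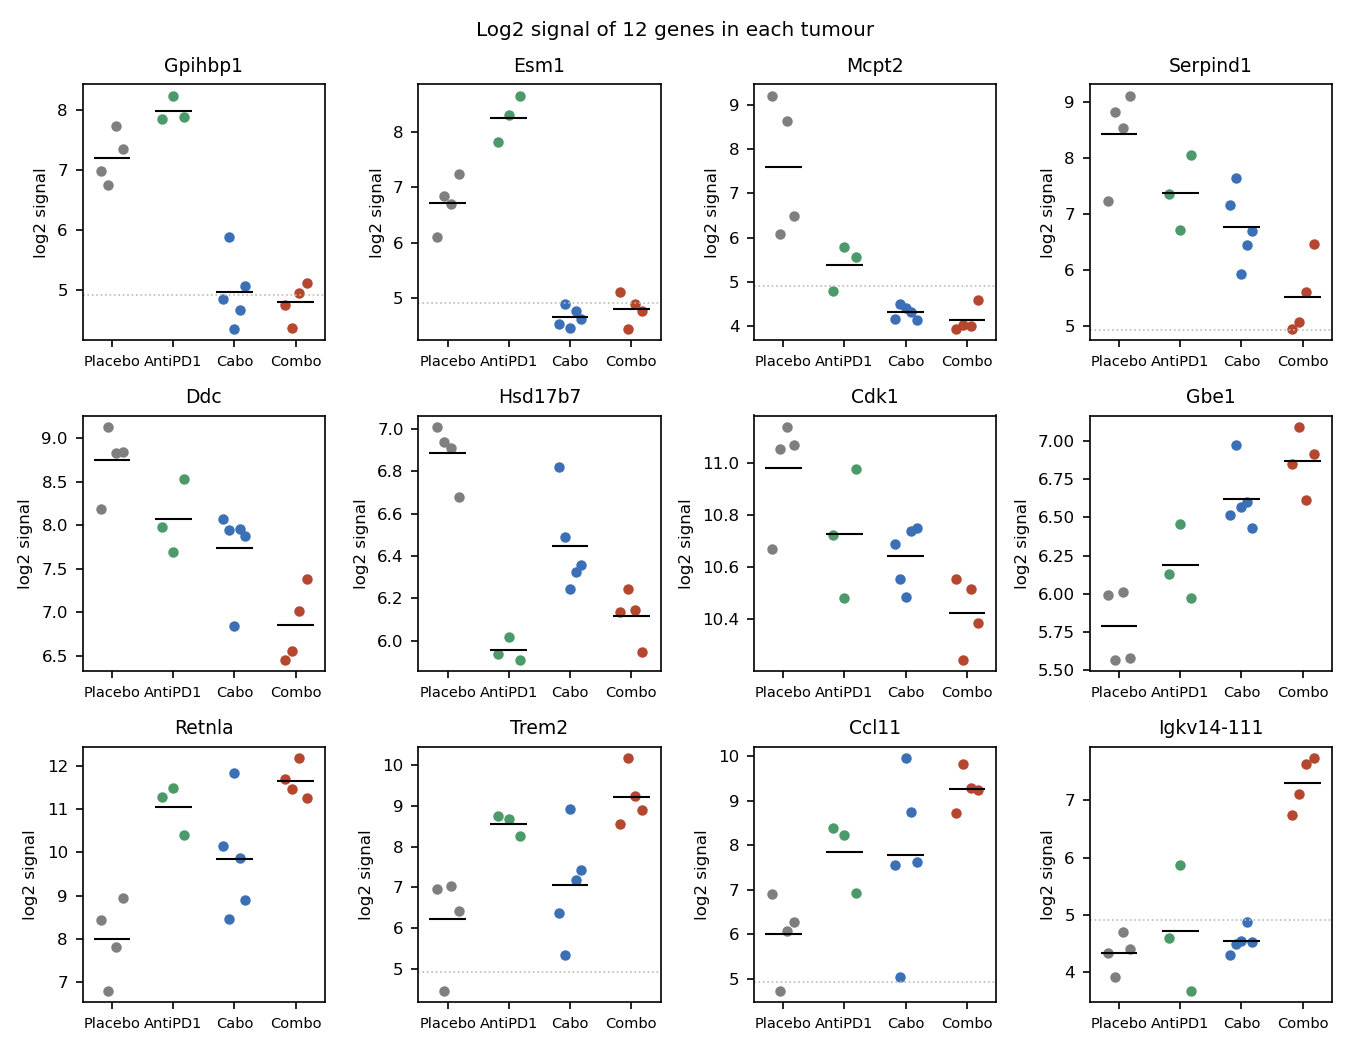
Log2 signal of 12 genes in each tumour (points) with the group mean (bar); groups are Placebo, AntiPD1, Cabozantinib (Cabo) and Combination (Combo), and the dotted line, where in range, is the lowest array median, 4.92. Gpihbp1 and Esm1 were near background in both groups that took cabozantinib, while Igkv14-111 was above it in the Combination tumours and in 1 AntiPD1 tumour.

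Of 14 genes of sprouting tips and capillaries, 5 fell and 2 rose, with a median log2 difference of -0.44. Of 27 general endothelial genes, 5 fell, 1 rose and 21 were not called, with a median of -0.12. Of the 27 differences 11 were positive. The largest in size was that of Aqp1, at 1.79 ± 0.71, which did not pass (adjusted p = 0.111). The mean log2 deviation of this list from each gene's mean over all tumours was -0.10, -0.43, 0.40 and 0.13 in Placebo. In Combination it was -0.19, 0.04, -0.03 and -0.02, all within the Placebo range. Kdr, the main signalling receptor for VEGF, read 6.01, 5.72, 6.84 and 6.05 in Placebo and 4.91, 5.16, 5.0 and 5.04 in Combination. Its highest Combination tumour lay below its lowest Placebo tumour, and it fell by 1.13 ± 0.31 (adjusted p = 0.0389). Cdh5, the cadherin of endothelial junctions, read 6.01, 6.11, 6.62 and 6.53 in Placebo and 5.14, 5.04, 5.29 and 5.65 in Combination and fell by 1.04 ± 0.21 (adjusted p = 0.0177). Its second probe set differed by -0.10. Kdr is not in the endothelial list and is counted with the kinases below. Besides Cdh5, the endothelial falls were Tie1, Emcn, Esam and Egfl7, and Unc5b was the remaining capillary one. Notch4 and Apln, a receptor and a peptide of sprouting endothelium, fell by 0.79 ± 0.18 and 0.83 ± 0.21 (adjusted p = 0.0208 and 0.0317). The 3 probe sets of Notch4 ranged from -0.79 to -0.03, and its Combination mean was not above background. Going the other way, Rgcc, a cell cycle regulator of endothelium, read 6.97, 6.40, 6.82 and 6.46 in Placebo and 8.83, 8.52, 7.39 and 8.05 in Combination and rose by 1.54 ± 0.36 (adjusted p = 0.024). Tek, the angiopoietin receptor, rose by 0.80 ± 0.24 (adjusted p = 0.0465) between 2 means that were not above background. The other rise in the capillary list was Lpl, the lipase that Gpihbp1 holds on the capillary wall. Lpl is also in the adipocyte list and macrophages make it, so its rise is not specific to vessels. The 5 falls among capillary genes became 2 without Placebo replicate 2 or 4 or Combination replicate 2 and 3 without Placebo replicate 1 or 3 or Combination replicate 1, and the 2 rises became 0 without Placebo replicate 2, 3 or 4 or Combination replicate 1 or 2 and 1 without Placebo replicate 1 or Combination replicate 3 or 4, and 1 by median centring. The 5 among endothelial genes became 0 without Combination replicate 2, 1 without Placebo replicate 2, 3 or 4, 2 without Combination replicate 3 or 4 and 3 without Combination replicate 1. Emcn, Lpl and Tek kept their calls in 0 of the 8 fits that leave out a Placebo or Combination array, Apln, Egfl7 and Kdr in 1 and Rgcc in 3. By median centring the endothelial median was -0.23, and by averaged probe sets the capillary median was -0.29.

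Of 12 genes of pericytes and smooth muscle, 4 fell and 0 rose, with a median of -0.16. Rgs5, a regulator of G protein signals in pericytes, read 11.33, 11.37, 11.25 and 11.24 in Placebo and 10.43, 10.46, 10.65 and 10.78 in Combination. All 4 Placebo tumours lay within 0.13 of each other and above every Combination tumour, and the fall was 0.72 ± 0.15 (adjusted p = 0.0178). Mcam, an adhesion molecule of pericytes and endothelium, fell by 0.90 ± 0.22 (adjusted p = 0.0266). Kcnj8, given above, and Higd1b were the others. In the basement membrane, the sheet of matrix on which endothelium sits, the 2 chains of its main collagen fell together. Col4a1 read 10.53, 10.55, 10.79 and 10.63 in Placebo and 10.06, 9.36, 9.62 and 9.62 in Combination and fell by 0.96 ± 0.19 (adjusted p = 0.0158), and Col4a2 read 9.26, 9.35, 9.64 and 9.37 in Placebo and 8.77, 8.22, 8.62 and 8.63 in Combination and fell by 0.85 ± 0.18 (adjusted p = 0.0189). Col18a1, the parent of endostatin, fell by 0.71 ± 0.14 (adjusted p = 0.015). These were 3 of 10 basement membrane genes, and none of the others was called. The 3 falls became 0 without Placebo replicate 2 or Combination replicate 2, and the 4 among pericyte genes became 1 without Placebo replicate 2 or Combination replicate 2 and 2 without Placebo replicate 4. The pericyte median ranged from -0.46 among genes above the dim filter to -0.10 with averaged probe sets.

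Among the kinases that cabozantinib blocks, 3 of 13 fell and 1 rose. Kit read 6.19, 5.68, 6.15 and 5.91 in Placebo and 5.0, 5.29, 5.53 and 5.25 in Combination and fell by 0.72 ± 0.21 (adjusted p = 0.0458), with no overlap between the groups. Tyro3 fell by 0.22 ± 0.06 (adjusted p = 0.0441) between means not above background, Kdr was the other fall, and Tek the rise. The 3 falls became 0 without Placebo replicate 2, 3 or 4 or Combination replicate 1, 2, 3 or 4 and 1 without Placebo replicate 1. Kit, Tyro3 and Tek kept their calls in 0 of the 8 fits and Kdr in 1, and the rises numbered 0 among genes above the dim filter, 2 with array weights and 2 from the 2 groups alone. Of 12 ligands, Kitl, the ligand of Kit, fell by 0.37 ± 0.10 (adjusted p = 0.0395) and no other passed. Kitl kept its call in 1 of the 8 fits, and the count of ligands was 0 with averaged probe sets and 0 by median centring. Vegfa, the growth factor that Kdr binds, had means of 9.60 ± 0.26 (SD, n = 4) and 9.81 ± 0.11 (SD, n = 4) and differed by 0.21 ± 0.17 (adjusted p = 0.442). KIT is the growth receptor of mast cells, and 5 of 18 genes of mast cells, basophils and eosinophils fell while 0 rose. Kit is in this list too. Mcpt2, a mast cell protease, read 9.19, 6.08, 8.64 and 6.49 in Placebo and 3.94, 4.03, 4.0 and 4.59 in Combination. Every Combination tumour was under the background level and every Placebo tumour above it, and the fall was 3.46 ± 0.53 (adjusted p = 0.0103). Mcpt1, of the same family, fell by 1.64 ± 0.45 (adjusted p = 0.0386), and Fcer1a, part of the IgE receptor, fell by 2.10 ± 0.58 (adjusted p = 0.0389). In Fcer1a, Placebo replicate 2 read 4.0, within the Combination range of 3.54 to 4.08 and not above background. Placebo replicates 2 and 4 of Mcpt1 read 4.38 and 4.04, also not above background. Tpsab1, a tryptase, fell by 0.49 ± 0.12 (adjusted p = 0.0298) with both means not above background. Placebo replicate 2 was also low in other protease genes of mast cells. Cpa3 read 9.01, 5.87, 8.99 and 8.49 in Placebo and 5.86, 5.99, 5.89 and 6.38 in Combination, so Placebo replicate 2 was as low as the Combination tumours, and the difference of -2.06 ± 0.71 did not pass (adjusted p = 0.0747). Mcpt4 had the same outlying replicate and a difference of -2.01 ± 0.71 (adjusted p = 0.082). The mean level of the whole list, as the log2 deviation from each gene's mean over the 16 tumours, was 1.11, -0.27, 0.89 and 0.41 in Placebo and -0.30, -0.23, -0.34 and -0.17 in Combination. The 5 falls became 1 without Placebo replicate 3 or Combination replicate 1 or 2, 2 without Placebo replicate 1 or 4 or Combination replicate 3 or 4 and 3 without Placebo replicate 2, and 2 among genes above the dim filter and 9 with array weights. Fcer1a and Mcpt1 kept their calls in 1 of the 8 fits.

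Genes of macrophages made up several of the lists with the highest medians. Of 25 monocyte and macrophage genes, 7 rose, 0 fell and 24 had a positive difference, with a median of 1.16 against -0.02 for all genes. Of 19 genes of alternative activation, the state that interleukin-4 induces, 11 rose with a median of 1.14. Of 23 genes of lipid handling and lysosomes, 11 rose with a median of 0.76. Some genes stand in 2 of these lists. The mean level of the first list was -0.07, -1.13, -0.16 and -0.52 in Placebo and 0.70, 1.0, 0.70 and 0.41 in Combination, so the lowest Combination tumour stood above the highest Placebo tumour. Without any 1 of the 8 arrays its median stayed between 0.94 and 1.28, but its 7 calls became 0 without Placebo replicate 2 or Combination replicate 2, 1 without Placebo replicate 3 or 4, 2 without Combination replicate 1 and 3 without Combination replicate 3, and 14 with array weights and 16 from the 2 groups alone. The 11 calls of alternative activation became 1 without Placebo replicate 2 or Combination replicate 2, 2 without Placebo replicate 4, 3 without Placebo replicate 3 or Combination replicate 3 and 5 without Combination replicate 1, and the 11 of the lipid list became 0 without Placebo replicate 2 or Combination replicate 2, 1 without Placebo replicate 3 or 4, 5 without Combination replicate 1 and 6 without Combination replicate 3, and 17 with array weights.

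Single macrophage genes spread over a wide range. Folr2, a folate receptor of tissue macrophages, read 5.89, 5.88, 6.20 and 7.93 in Placebo and 8.97, 9.56, 9.35 and 8.36 in Combination. Placebo replicate 4 was well above the other Placebo tumours but below every Combination tumour, and the rise was 2.59 ± 0.59 (adjusted p = 0.022). Trem2, a lipid receptor of macrophages, read 6.95, 4.45, 7.04 and 6.41 in Placebo and 8.56, 10.18, 9.24 and 8.90 in Combination. The lowest of the 8 was Placebo replicate 2, and the rise was 3.01 ± 0.67 (adjusted p = 0.0208). Its other probe set differed by 0.04. Atp6v0d2, a subunit of the proton pump that acidifies lysosomes, rose by 2.56 ± 0.62 (adjusted p = 0.027) and Ctsd, a protease of lysosomes, by 0.60 ± 0.14 (adjusted p = 0.0251). Cd163, the scavenger receptor for haemoglobin, read 4.12, 4.12, 4.44 and 4.63 in Placebo and 6.36, 5.54, 5.42 and 5.82 in Combination and rose by 1.46 ± 0.35 (adjusted p = 0.026) from a level not above background. The chitinase-like proteins Chil3 and Chil4 rose by 3.40 ± 0.91 and 3.59 ± 0.93 (adjusted p = 0.036 and 0.0326), with Placebo values of Chil3 spread over 5.04, and a second probe set of Chil4 that differed by 0.15. Csf1r, the receptor on which macrophages depend, read 9.17, 7.82, 8.84 and 8.48 in Placebo and 9.51, 10.08, 9.99 and 9.48 in Combination, and its difference of 1.19 ± 0.46 did not pass (adjusted p = 0.102) although the groups did not overlap. Adgre1, the F4/80 antigen, differed by 1.62 ± 0.53 (adjusted p = 0.0628). Of these genes, Folr2 was no longer called without Placebo replicate 2 or 3 or Combination replicate 2, and Trem2 without Placebo replicate 2 or 4 or Combination replicate 2. The others called were less stable. Atp6v0d2 and Ctsd kept their calls in 4 of the 8 fits, and Cd163, Chil3 and Chil4 in 3.

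The chemokines other than those that attract neutrophils had 8 rises and 0 falls among 21 genes, all 21 of which were positive (median 0.97). Ccl11, eotaxin, which draws eosinophils, read 6.90, 4.73, 6.07 and 6.27 in Placebo and 8.73, 9.81, 9.28 and 9.23 in Combination. The nearest tumours stood 1.83 apart, and the rise was 3.27 ± 0.78 (adjusted p = 0.026). Ccl9, Ccl8 and Ccl12, which attract monocytes, rose by 1.86 ± 0.44, 1.67 ± 0.41 and 1.40 ± 0.32 (adjusted p = 0.0252, 0.0289 and 0.0229). The calls of this list became 0 without Placebo replicate 2 or 4 or Combination replicate 2, 2 without Placebo replicate 3 and 4 without Combination replicate 1 or 3, and 13 with array weights. Of 13 complement genes 5 rose and 0 fell. C6, a component of the membrane attack complex, read 4.98, 5.04, 4.90 and 5.20 in Placebo and 5.93, 6.74, 6.28 and 5.97 in Combination and rose by 1.20 ± 0.22 (adjusted p = 0.0147). C4b, an early component, read 9.61, 9.05, 9.20 and 9.44 in Placebo and 10.71, 11.29, 10.69 and 10.96 in Combination and rose by 1.59 ± 0.32 (adjusted p = 0.0168). The nearest tumours were 0.73 and 1.08 apart. C1ra, of the first complement complex, was also called. C5ar1 and C3ar1, the receptors for the complement peptides that call in myeloid cells, rose by 2.02 ± 0.43 and 1.95 ± 0.54 (adjusted p = 0.0189 and 0.0394). The 5 complement calls became 0 without Placebo replicate 2 or Combination replicate 2, 2 without Placebo replicate 4 and 3 without Placebo replicate 3 or Combination replicate 3. Among cytokines, Inhba, the activin A subunit, read 7.44, 5.88, 7.46 and 6.04 in Placebo and 9.21, 9.56, 9.31 and 8.31 in Combination and rose by 2.39 ± 0.49 (adjusted p = 0.0177), although its other probe set differed by 0.11. Il33, an alarmin, rose by 0.60 ± 0.16 (adjusted p = 0.0358) and Nos2, the inducible nitric oxide synthase, by 1.68 ± 0.49 (adjusted p = 0.0444) from a mean not above background. With Il1rn, the interleukin-1 receptor antagonist, which rose by 1.17 ± 0.35 (adjusted p = 0.0465), they made 4 rises among 21 cytokine genes, a count that became 0 without Placebo replicate 2 or 4 or Combination replicate 2, 1 without Placebo replicate 3 or Combination replicate 1 and 2 without Combination replicate 3, and 2 by median centring and 2 with a trended robust variance.

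Neutrophils are named in the study's title, and 4 of 26 neutrophil genes rose and 0 fell, with a median of 0.54. Of the 26 differences 20 were positive, and the lowest was -0.59, that of Ngp. Clec4d, a lectin receptor shared with monocytes, read 7.72, 5.63, 7.43 and 6.47 in Placebo and 9.64, 10.24, 9.62 and 8.38 in Combination and rose by 2.66 ± 0.60 (adjusted p = 0.0219). Csf3r, the receptor for G-CSF, read 6.30, 5.49, 6.16 and 5.75 in Placebo and 7.22, 7.63, 7.44 and 6.75 in Combination and rose by 1.34 ± 0.28 (adjusted p = 0.0187). Wfdc21 read 5.21, 5.1, 5.29 and 4.99 in Placebo and 8.57, 7.75, 6.49 and 5.89 in Combination, with Combination tumours spread over 2.68, and rose by 2.03 ± 0.47 (adjusted p = 0.0232). Mmp8, neutrophil collagenase, rose by 1.50 ± 0.38 (adjusted p = 0.0314). S100a8, a subunit of calprotectin, read 7.73, 7.43, 8.76 and 7.28 in Placebo and 10.33, 9.66, 9.53 and 8.62 in Combination. Combination replicate 4 lay below Placebo replicate 3, and the difference of 1.73 ± 0.55 did not pass (adjusted p = 0.0569). Its partner S100a9 differed by 1.92 ± 0.59 (adjusted p = 0.0504). Of the chemokines that call neutrophils, Cxcl2 differed by 1.61 ± 0.56 (adjusted p = 0.0762). Cxcl15, of the same chemokine family, read 9.49, 10.25, 10.33 and 10.21 in Placebo and 8.29, 8.64, 8.93 and 9.04 in Combination and fell by 1.34 ± 0.25 (adjusted p = 0.015). The mean level of the neutrophil list was -0.29, -0.90, -0.15 and -0.62 in Placebo and 0.66, 0.41, 0.34 and -0.28 in Combination, with Combination replicate 4 among the Placebo values. The 4 calls became 0 without Placebo replicate 2 or 4 or Combination replicate 2, 2 without Placebo replicate 3 and 9 without Combination replicate 4, and 9 with array weights. Among neutrophil genes above the dim filter the median was 1.50.

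No gene of the T cell, cytotoxic and antigen presentation lists passed limma's test, while 2, 1 and 1 of them had an unadjusted p under 0.05. Of 14 T cell genes all 14 had a positive difference, with a median of 0.49, and of 17 cytotoxic and natural killer genes 13 were positive. Cd8a, the coreceptor of killer T cells, read 8.78, 8.25, 8.11 and 8.19 in Placebo and 9.13, 8.87, 8.81 and 8.43 in Combination. Combination replicates 1 to 3 exceeded every Placebo tumour and replicate 4 did not, for a difference of 0.48 ± 0.30 (adjusted p = 0.314). Prf1, which encodes perforin, differed by 0.94 ± 0.39 (adjusted p = 0.123; -0.19 by its second probe set) and Ifng, interferon gamma, by 0.79 ± 0.42 (adjusted p = 0.228). Checkpoint genes gave 3 rises among 24, a count that became 0 without Placebo replicate 2 or 4 or Combination replicate 2, 1 without Placebo replicate 3 or Combination replicate 1 or 3 and 6 without Placebo replicate 1, and 5 among genes above the dim filter, 5 by quantile normalisation, 6 from the 2 groups alone and 8 with array weights. Tnfrsf9, the costimulatory receptor 4-1BB, read 8.15, 7.22, 7.59 and 7.08 in Placebo and 9.36, 9.49, 9.55 and 8.43 in Combination, so all 4 Combination tumours were above Placebo, and it rose by 1.70 ± 0.37 (adjusted p = 0.0198). The lowest of its 3 probe sets differed by -0.11. Pdcd1lg2 and Cd274, the ligands of PD-1, rose by 1.02 ± 0.26 and 0.84 ± 0.23 (adjusted p = 0.0309 and 0.0358) and had 3 of 4 Combination tumours above every Placebo tumour, with Placebo replicate 1 the highest of its group for both. Tnfrsf9 was no longer called without Placebo replicate 2 or 4 or Combination replicate 2, and neither ligand without Placebo replicate 2, 3 or 4 or Combination replicate 1, 2 or 3. Ctla4, an inhibitory receptor of T cells, differed by 1.54 ± 0.48 (adjusted p = 0.0546). Of 22 genes of antigen presentation and the interferon gamma response, all 22 differences were positive (median 0.23, or 0.12 by median centring). In the type I interferon list, Usp18, a brake on interferon signalling, fell by 0.67 ± 0.17 (adjusted p = 0.0291), the only call among 19.

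The 3 largest rises among the called genes were antibody segments. Igkv15-103 read 4.20, 4.27, 4.12 and 4.32 in Placebo and 7.09, 11.01, 9.60 and 11.92 in Combination, from background in every Placebo tumour, and rose by 5.68 ± 0.98 (adjusted p = 0.0147). Iglv1, of the lambda light chain, read 7.06, 4.24, 6.58 and 5.67 in Placebo and 9.45, 11.04, 9.43 and 12.50 in Combination and rose by 4.71 ± 1.23 (adjusted p = 0.0339). Igk-V21 read 4.95, 4.35, 6.74 and 4.90 in Placebo and 9.62, 10.91, 8.72 and 10.24 in Combination and rose by 4.64 ± 0.84 (adjusted p = 0.0147). The lowest of its 3 probe sets differed by 0.02. Each of these is 1 of many similar gene segments, so probes may read relatives of the named gene. Jchain, which links antibody molecules, read 9.25, 4.80, 8.90 and 8.03 in Placebo and 10.76, 11.86, 10.76 and 12.32 in Combination and differed by 3.68 ± 1.28 (adjusted p = 0.0761), with Placebo replicate 2 far below the rest. Pou2af1 and Irf4, transcriptional regulators of B and plasma cells, rose by 2.35 ± 0.55 and 1.13 ± 0.26 (adjusted p = 0.0251 and 0.0219). Their Placebo means were not above background. In total 6 of 15 plasma cell and antibody genes rose, and Fkbp11, a folding enzyme of secretory cells, fell by 0.63 ± 0.18 (adjusted p = 0.0451). The mean level of the list was -0.27, -0.88, -0.11 and -0.47 in Placebo and 0.61, 1.24, 0.59 and 1.62 in Combination, highest in Combination replicates 2 and 4. Ms4a1, the CD20 antigen of B cells, was high in the same 2 tumours, reading 4.84, 4.55, 4.39 and 4.46 in Placebo and 5.29, 6.58, 4.60 and 7.12 in Combination, and its difference of 1.33 ± 0.48 did not pass (adjusted p = 0.0854). Tnfsf13, the plasma cell survival factor APRIL, rose by 0.64 ± 0.17 (adjusted p = 0.0322). The 6 rises became 1 without Placebo replicate 2 or Combination replicate 2, 2 without Placebo replicate 4 and 3 without Placebo replicate 3, and Igkv14-111 kept its call in all of these fits.

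Of a list of 25 fibroblast and matrix genes 3 rose, 0 fell and 23 were positive (median 0.75). Dpt, dermatopontin of the collagen matrix, read 5.83, 5.04, 6.41 and 8.98 in Placebo and 10.42, 10.79, 9.96 and 9.68 in Combination and rose by 3.65 ± 0.96 (adjusted p = 0.0349). Lum, a collagen-binding proteoglycan, rose by 2.87 ± 0.87 (adjusted p = 0.0492) and Lox, which crosslinks collagen, by 1.87 ± 0.55 (adjusted p = 0.0459). The main fibrillar collagen gene Col1a1 differed by 1.15 ± 0.61 (adjusted p = 0.227). The 3 rises became 0 without Placebo replicate 1, 2 or 3 or Combination replicate 1, 2 or 3 and 1 without Placebo replicate 4 or Combination replicate 4, and 1 with a trended robust variance, 5 with array weights and 14 from the 2 groups alone. Lum and Lox kept their calls in 0 of the 8 fits that leave out a Placebo or Combination array and Dpt in 2, being lost without Placebo replicate 1, 2 or 3 or Combination replicate 1, 2 or 3. The other 4 genes given here are not in the list and are named as large rises. Scara5, a ferritin receptor, read 4.23, 4.23, 4.93 and 7.08 in Placebo and 8.08, 9.11, 8.54 and 8.69 in Combination and rose by 3.49 ± 0.88 (adjusted p = 0.0309), though its second probe set differed by -0.16. Ogn, a small proteoglycan, read 4.88, 4.32, 7.07 and 7.06 in Placebo and 8.12, 9.61, 9.25 and 10.16 in Combination and rose by 3.45 ± 0.89 (adjusted p = 0.0325). In Dpt, Scara5 and Ogn Placebo replicate 2 was the lowest tumour, and the Placebo tumours spread over 3.93, 2.85 and 2.75. Efemp1 and Clec3b, an elastic fibre protein and tetranectin, rose by 3.46 ± 0.91 and 3.27 ± 0.82 (adjusted p = 0.0347 and 0.0307). Scara5 was no longer called without Placebo replicate 2 or 3 or Combination replicate 2 or 3, Ogn without Placebo replicate 1, 2, 3 or 4 or Combination replicate 2, 3 or 4, Efemp1 without Placebo replicate 1, 2 or 3 or Combination replicate 1, 2 or 4 and Clec3b without Placebo replicate 2 or 3 or Combination replicate 2.

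Lists of fat, muscle and Y-linked genes also differed between tumours. The adipocyte list had mean levels of -0.92, -1.01, -0.61 and -0.32 in Placebo and 1.97, 1.58, -0.08 and 0.67 in Combination, with 11 of 12 differences positive and 1 gene called, Lpl, which macrophages also make and which rose by 0.76 ± 0.21 (adjusted p = 0.0403). Lpl kept its call in 0 of the 8 fits, and the adipocyte calls numbered 0 by median centring, 2 with array weights, 2 among genes above the dim filter, 2 with the title number as a block and 6 from the 2 groups alone. Adipoq, the fat cell hormone adiponectin, read 4.23, 4.36, 4.38 and 7.09 in Placebo and 11.38, 10.94, 7.19 and 8.25 in Combination and differed by 4.43 ± 1.57 (adjusted p = 0.0817). Cyp2e1, a cytochrome of liver that fat also expresses, read 3.86, 4.49, 4.87 and 5.32 in Placebo and 9.55, 9.71, 6.57 and 7.81 in Combination and rose by 3.78 ± 1.04 (adjusted p = 0.0385). Both were highest in Combination replicates 1 and 2. The skeletal muscle list stood at -1.02, -1.82, 0.65 and -1.83 in Placebo and -1.70, -1.78, 0.41 and 5.02 in Combination, so Combination replicate 4 stood far above the others, and its median went from 1.53 to 0.02 without that array. The Y-linked genes, which a male host carries, stood at 0.09, -0.89, 0.0 and -0.76 in Placebo and 0.47, 1.0, 0.25 and 0.42 in Combination, and 2 of 3 rose. Eif2s3y read 7.79, 6.49, 7.45 and 6.60 in Placebo and 8.43, 8.79, 8.11 and 8.29 in Combination. All 4 Combination tumours were above Placebo, and Placebo replicates 2 and 4 were lowest, as in the macrophage list. The 2 rises of Y-linked genes became 0 without Placebo replicate 2, 3 or 4 or Combination replicate 1, 2, 3 or 4, and 1 with averaged probe sets. Cyp2e1 kept its call in 1 of the 8 fits. The part of these signals in the rises of stromal and immune genes and in the falls of tumour cell genes was not tested. Hybridisation controls were 9.86 ± 0.39 (SD, n = 4) in Placebo and 10.15 ± 0.31 (SD, n = 4) in Combination, labelling controls 8.41 ± 0.61 (SD, n = 4) in Placebo and 8.55 ± 0.60 (SD, n = 4) in Combination, and the excess of 3' over 5' Actb signal 0.490 ± 0.036 (SD, n = 4) in Placebo and 0.448 ± 0.026 (SD, n = 4) in Combination. The groups overlapped in all 3 measures, with Placebo replicate 2 at the extreme in each.

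**Figure D3:**
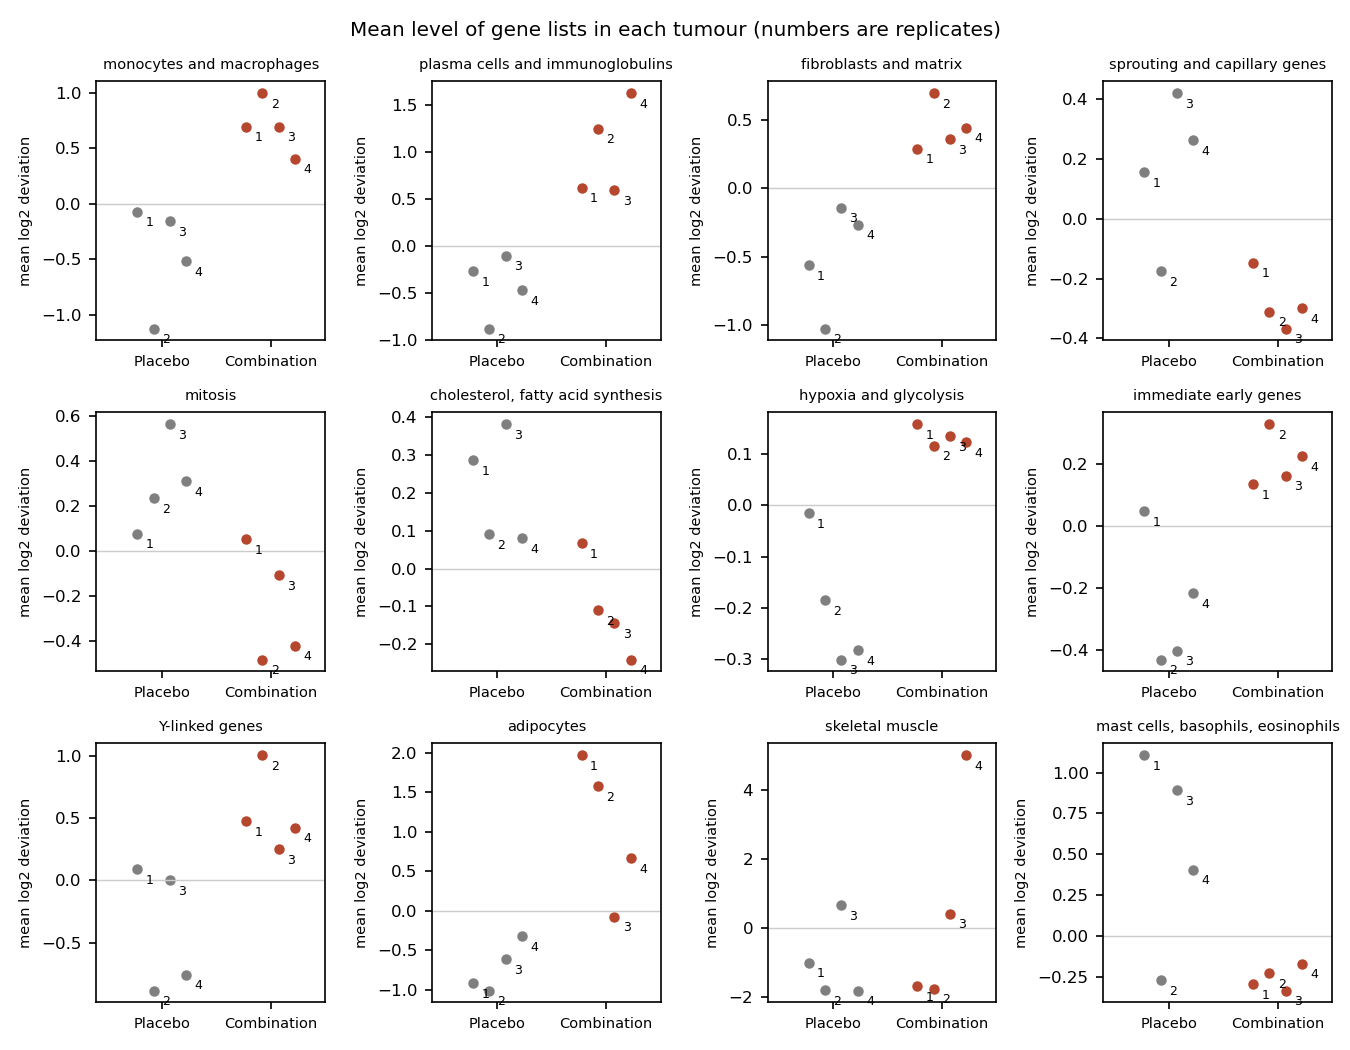
Mean log2 deviation of 12 gene lists from each gene's mean over the 16 tumours, in each Placebo (grey) and Combination (red) tumour; the small numbers are replicates. Combination replicate 4 stands at 5.02 for skeletal muscle, and Placebo replicate 2 is the lowest Placebo tumour for macrophages at -1.13.

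Every measured gene of the replication and mitosis lists had a lower mean in Combination. Of 26 DNA replication genes 17 fell, 0 rose and 0 had a positive difference (median -0.51). Of 34 mitosis genes 15 fell, 0 rose and 0 were positive (median -0.52). The changes were small for single genes, at most 0.70 in the first list (Rfc3, of the clamp loader) and 0.86 in the second (Kif20a, a motor of cytokinesis). Cdk1, the kinase that starts mitosis, read 10.67, 11.05, 11.14 and 11.07 in Placebo and 10.55, 10.24, 10.52 and 10.39 in Combination and fell by 0.56 ± 0.12 (adjusted p = 0.0199). Mcm5, a subunit of the replicative helicase, read 8.51, 8.79, 8.92 and 8.61 in Placebo and 8.31, 7.73, 8.29 and 7.93 in Combination and fell by 0.64 ± 0.17 (adjusted p = 0.0362). In both genes Combination replicate 1 came close to Placebo replicate 1, with gaps of 0.11 and 0.19. Mki67, the common proliferation marker, differed by -0.31 ± 0.12 (adjusted p = 0.111). The mean level of the mitosis list was 0.08, 0.24, 0.56 and 0.31 in Placebo and 0.05, -0.48, -0.11 and -0.42 in Combination. With each of the 8 arrays left out, its median stayed between -0.62 and -0.42, while its 15 falls became 0 without Placebo replicate 2, 3 or 4 or Combination replicate 2, 3 without Combination replicate 4 and 9 without Combination replicate 3. The 17 falls of replication genes became 0 without Placebo replicate 2, 3 or 4 or Combination replicate 2, 5 without Combination replicate 4 and 11 without Combination replicate 3. Of 20 genes of cyclins, their kinases and cell cycle inhibitors, 4 fell, 2 rose and 14 were not called. Of those that drive entry into S phase, Cdk4 was called lower, and Cdk2, Ccne1 and Ccne2 fell by 0.52 ± 0.12, 0.66 ± 0.18 and 0.65 ± 0.18 (adjusted p = 0.0237, 0.0359 and 0.0373). The inhibitors of the cycle that rose were Cdkn1c by 1.70 ± 0.41 (adjusted p = 0.0266), from a level not above background in Placebo, and Rb1 by 0.68 ± 0.16 (adjusted p = 0.0244), whose other probe set differed by 0.00. The 4 falls of this list became 0 without Placebo replicate 2, 3 or 4 or Combination replicate 2. They became 1 without Combination replicate 3 or 4 and 3 without Combination replicate 1. The 2 rises became 0 without Placebo replicate 2, 3 or 4 or Combination replicate 2, and 1 among genes above the dim filter. Ccne1 and Ccne2 kept their calls in 2 of the 8 fits.

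Since the replication and mitosis lists moved together, their RefSeq promoters were searched on both strands for short motifs known from cell cycle genes. A promoter was taken as 250 bases before to 50 after the start (build GRCm38.p6), and genes with a single promoter in the table were used. The motif TTTGAA or TTCGAA, called CHR, stood in 23 of 27 mitosis genes, in 10 of 12 of those that fell, and in 19.8% of all 22862 promoters. The CCAAT box was found in 21 of 27 mitosis genes against 38.2% of all, and also in 13 of 18 replication and 14 of 16 cholesterol and fatty acid genes. The E2F motif TTTGGCG or TTTCGCG was found in 7 of 18 replication genes, in 5 of 11 of those that fell, and in 2.31% of all. A match is a description of letters and not a bound site. The promoters of Cdk1 (chr10:69352863-69353162, minus strand) and Mcm5 (chr8:75109259-75109558, plus strand) are shown 5′ to 3′ as an example of each class, with CHR and CCAAT matches of either strand in capitals in the first and overlapping E2F matches in the second.
Cdk1: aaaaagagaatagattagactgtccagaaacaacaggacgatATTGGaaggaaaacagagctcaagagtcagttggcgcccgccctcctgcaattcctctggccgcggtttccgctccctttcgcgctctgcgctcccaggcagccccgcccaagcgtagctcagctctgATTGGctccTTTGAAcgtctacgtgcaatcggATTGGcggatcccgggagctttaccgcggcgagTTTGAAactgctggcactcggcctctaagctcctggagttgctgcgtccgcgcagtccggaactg
Mcm5: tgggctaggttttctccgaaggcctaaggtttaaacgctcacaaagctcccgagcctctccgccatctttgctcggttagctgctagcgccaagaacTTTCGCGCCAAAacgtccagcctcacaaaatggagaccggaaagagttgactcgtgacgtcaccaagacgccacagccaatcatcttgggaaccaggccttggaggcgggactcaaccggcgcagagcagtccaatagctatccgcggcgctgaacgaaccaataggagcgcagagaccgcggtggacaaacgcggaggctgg

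Foxa1, a transcription factor of liver, read 8.04, 8.62, 8.28 and 8.60 in Placebo and 6.93, 6.93, 7.54 and 7.77 in Combination, and Foxa3 read 9.35, 9.89, 9.58 and 9.95 in Placebo and 8.83, 8.58, 9.14 and 9.08 in Combination. They fell by 1.09 ± 0.22 and 0.78 ± 0.19 (adjusted p = 0.0158 and 0.0273), the 2 calls among 16 liver transcription factors. Epcam, an epithelial adhesion molecule of liver progenitors, read 9.44, 9.96, 9.60 and 10.01 in Placebo and 8.86, 8.63, 9.09 and 9.26 in Combination and fell by 0.79 ± 0.17 (adjusted p = 0.0202). Lgr5, a receptor that strengthens WNT signals, read 10.30, 10.71, 10.35 and 10.43 in Placebo and 9.38, 9.50, 9.84 and 9.90 in Combination and fell by 0.79 ± 0.15 (adjusted p = 0.015). The groups did not overlap in any of the 4 genes. Epcam and Lgr5 are from a list of 16 oncofetal and imprinted liver tumour genes, of which 2 fell, 2 rose and 7 were positive. The rises were Cdkn1c by 1.70 ± 0.41 and Meg3 by 1.67 ± 0.48 (adjusted p = 0.0266 and 0.0417). The falls of this list became 0 without Placebo replicate 2 or Combination replicate 2 and 1 without Placebo replicate 4. Its rises became 0 without Placebo replicate 2, 3 or 4 or Combination replicate 2 and 1 in the other fits. Bche, the plasma butyrylcholinesterase made by liver, read 7.04, 8.67, 7.99 and 8.21 in Placebo and 6.56, 5.66, 5.78 and 6.03 in Combination and fell by 1.97 ± 0.44 (adjusted p = 0.0208). Iyd, an iodotyrosine deiodinase, fell by 1.51 ± 0.34 and Tmed6, of the secretory pathway, by 1.61 ± 0.28 (adjusted p = 0.021 and 0.0147). Alb fell by 0.22 ± 0.06 (adjusted p = 0.0361) and Trf, transferrin, by 0.28 ± 0.08 (adjusted p = 0.0407), both from levels near the top of the scale, where array signals can be compressed. Ttr, transthyretin, read 9.21, 10.58, 10.03 and 10.87 in Placebo and 6.25, 7.17, 7.79 and 10.56 in Combination. Combination replicate 4 stayed at the Placebo level while the other 3 were lower, and the difference of -2.23 ± 0.78 did not pass (adjusted p = 0.0782). Hp, the acute phase protein haptoglobin, read 8.14, 7.71, 8.25 and 9.19 in Placebo and 11.31, 10.89, 9.13 and 9.84 in Combination. It went up by 1.97 ± 0.58 (adjusted p = 0.0459). Like Adipoq and Cyp2e1 it was highest in Combination replicates 1 and 2, and the part of fat in its rise was not tested. Of 26 hepatocyte genes 2 fell and 2 rose, with a median of -0.23. Among all genes 6.64% fell and 3.71% rose. Counts of this size among liver transcription factors and hepatocyte genes are therefore not read as a result about those lists. Of p53 targets Perp, Zmat3 and Aen fell, by 0.75 ± 0.16, 0.64 ± 0.13 and 0.57 ± 0.15 (adjusted p = 0.0202, 0.0182 and 0.0309), which were 3 of 17 measured. That count became 0 without Placebo replicate 2 or Combination replicate 2, 1 without Placebo replicate 4 and 5 without Placebo replicate 1, and 5 among genes above the dim filter. The 2 falls of liver transcription factors became 0 without Placebo replicate 2 or 4 or Combination replicate 2 and 1 without Placebo replicate 3 or Combination replicate 1, and 4 with array weights. The 2 hepatocyte falls became 0 without Placebo replicate 2, 3 or 4 or Combination replicate 1, 2 or 3, and 1 from the 2 groups alone and 5 with array weights, and the 2 rises became 0 without Placebo replicate 1, 2, 3 or 4 or Combination replicate 1, 2 or 4, and 1 with a trended robust variance. Alb and Trf kept their calls in 2 of the 8 fits and Hp in 1. Foxa1 was no longer called without Placebo replicate 2 or 4 or Combination replicate 2, Epcam without Placebo replicate 2 or 4 or Combination replicate 2 and Bche without Placebo replicate 2, 3 or 4 or Combination replicate 2. Iyd kept its call in 4 of the 8 fits, Foxa3 in 3 and Meg3 in 0.

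Of 21 genes of cholesterol and fatty acid synthesis 5 fell, 0 rose and 3 were positive, with a median of -0.46. The 5 that fell all make cholesterol or its precursors. Fdps, which makes farnesyl diphosphate, had means of 10.58 ± 0.22 (SD, n = 4) in Placebo and 9.89 ± 0.16 (SD, n = 4) in Combination and fell by 0.69 ± 0.18 (adjusted p = 0.0314). Fdft1 and Sqle, which make squalene and its epoxide, fell by 0.58 ± 0.17 and 0.50 ± 0.14 (adjusted p = 0.0481 and 0.0405). Lss, which closes the sterol rings, read 6.43, 6.60, 6.46 and 6.38 in Placebo and 5.36, 5.52, 5.69 and 5.71 in Combination and fell by 0.89 ± 0.19 (adjusted p = 0.0194). Hsd17b7, a reductase of a later step, read 7.01, 6.94, 6.91 and 6.68 in Placebo and 6.13, 6.24, 6.15 and 5.95 in Combination and fell by 0.77 ± 0.11 (adjusted p = 0.00875). Its 3 probe sets ranged from -0.77 to -0.01. No Combination tumour reached a Placebo tumour for any of the 5. The means in AntiPD1 were 10.03 for Fdps, 5.54 for Lss and 5.96 for Hsd17b7, against 9.89, 5.57 and 6.12 in Combination, and those in Cabozantinib were 10.36, 6.12 and 6.45. The difference from either single drug did not pass for these 3 (adjusted p of 0.125, 0.107 and 0.104 against Cabozantinib and 0.952, 0.995 and 0.866 against AntiPD1). The 5 falls became 1 without Placebo replicate 2 or 4 or Combination replicate 2, 2 without Placebo replicate 3 or Combination replicate 1 or 4 and 3 without Placebo replicate 1, and 3 by median centring, 8 among genes above the dim filter, 8 with averaged probe sets, 9 with array weights and 10 from the 2 groups alone. Fdft1 and Sqle kept their calls in 1 of the 8 fits and Fdps in 2.

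Of 30 genes of glycolysis, glycogen and the response to low oxygen 10 rose, 0 fell and 24 were positive (median 0.21). By median centring the rises numbered 5 and the median was 0.10. Gbe1 is in this list and Ppp1r3b is not. Gys1, the glycogen synthase, read 7.25, 7.23, 7.02 and 6.79 in Placebo and 7.46, 7.40, 7.58 and 7.62 in Combination and rose by 0.44 ± 0.12 (adjusted p = 0.036). Pfkp, an enzyme of the first committed step of glycolysis, and Pfkfb3, which makes the activator of that step, rose by 0.65 ± 0.13 and 0.90 ± 0.20 (adjusted p = 0.015 and 0.0208). Ero1a, an oxidase that forms disulphide bonds in the endoplasmic reticulum, read 10.47, 10.37, 9.99 and 9.98 in Placebo and 10.90, 11.01, 10.92 and 10.60 in Combination and rose by 0.65 ± 0.15 (adjusted p = 0.0208). Car9, the carbonic anhydrase that low oxygen induces, rose by 0.65 ± 0.18 (adjusted p = 0.0383), with 2 of 4 tumours above Placebo. Slc2a1, the glucose transporter, differed by 0.20 ± 0.09 (adjusted p = 0.14). The 10 rises became 1 without Placebo replicate 2 or Combination replicate 2, 2 without Placebo replicate 3 or 4, 5 without Combination replicate 1 or 3 and 6 without Combination replicate 4, and Gbe1 kept its call in all of these fits. Gys1 kept its call in 1 of the 8 fits. The core letters of the hypoxia response element, ACGTG or GCGTG, stood in 17 of 20 promoters of the list, in 6 of 8 of those that rose, and in 43.1% of all. These letters were common also in lists outside the response to low oxygen, in 12 of 15 immediate early, 12 of 16 cholesterol and fatty acid and 19 of 27 mitosis promoters. The Ero1a promoter (chr14:45318523-45318822, minus strand), with 3 matches in capitals, is shown as an example.
Ero1a: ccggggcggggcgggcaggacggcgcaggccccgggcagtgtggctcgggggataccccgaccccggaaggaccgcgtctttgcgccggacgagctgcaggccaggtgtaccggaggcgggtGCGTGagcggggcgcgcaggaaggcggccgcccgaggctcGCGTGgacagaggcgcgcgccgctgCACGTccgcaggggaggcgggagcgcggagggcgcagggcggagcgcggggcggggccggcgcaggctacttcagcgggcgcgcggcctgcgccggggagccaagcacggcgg

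Immediate early genes, which respond within minutes to growth factors, stress or handling of tissue, numbered 20, of which 7 rose and 0 fell, with a median of 0.43. Dusp1, a phosphatase that turns off MAP kinases, read 11.43, 10.59, 10.36 and 10.94 in Placebo and 12.03, 11.75, 11.67 and 11.90 in Combination and rose by 1.0 ± 0.18 (adjusted p = 0.0147). Fos and Jun, the partners in the AP-1 factor, rose by 1.45 ± 0.33 and 0.91 ± 0.18 (adjusted p = 0.0209 and 0.015). Ier3, Klf6 and Atf3 rose by 0.71 ± 0.16, 0.44 ± 0.11 and 0.83 ± 0.25 (adjusted p = 0.0204, 0.0331 and 0.0481). The mean level of the list was 0.05, -0.43, -0.40 and -0.22 in Placebo and 0.14, 0.33, 0.16 and 0.23 in Combination, with no overlap between the groups. The sources used here do not give how long tissue waited before freezing, and its part was not tested. The 7 calls became 0 without Placebo replicate 2 or Combination replicate 2, 2 without Placebo replicate 3, 3 without Placebo replicate 4 and 4 without Combination replicate 1, and Atf3 kept its call in 0 of the 8 fits.

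**Figure D4:**
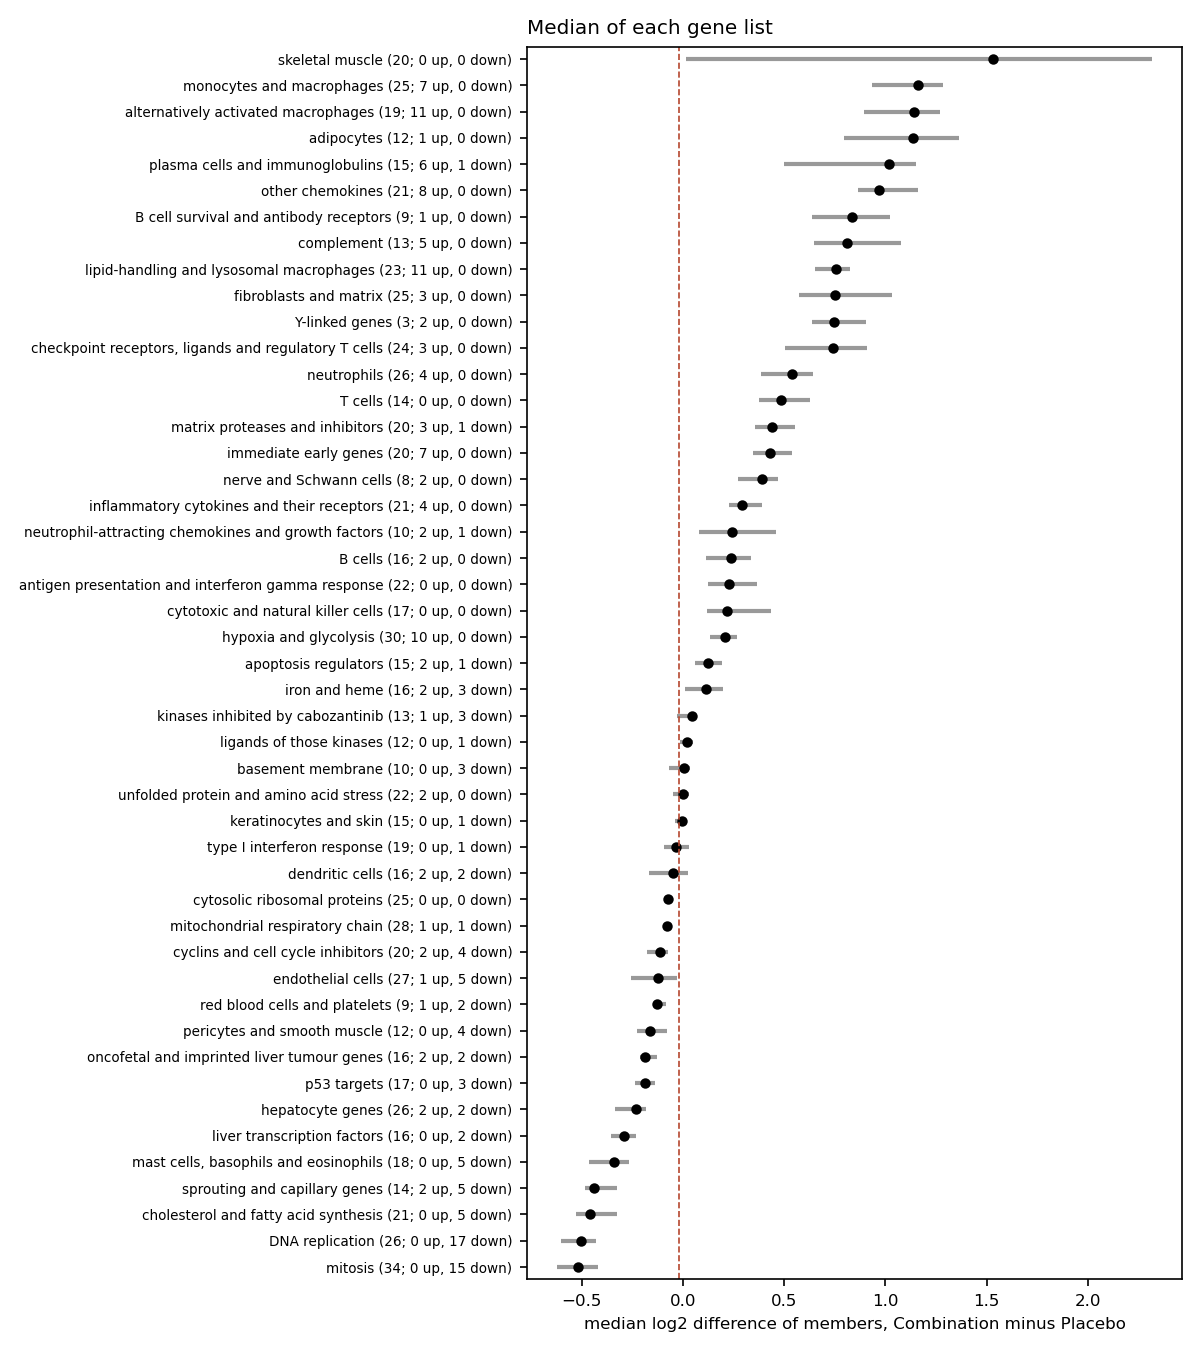
Median log2 difference (Combination minus Placebo) of the measured members of each gene list (black points), with the range of that median when each Placebo or Combination array is left out (grey bars); the dashed line is the median of all genes. Labels give the members measured and the numbers that rose and fell; mitosis and DNA replication lie lowest, and the wide bar of skeletal muscle runs from 0.02 to 2.32.

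The 2 drugs together were then set against each drug alone. The sources used here do not say whether the Cabozantinib mice received hamster IgG, so in the comparison with Cabozantinib and in the interaction the block of PD-1 and the injection of a hamster antibody cannot be told apart. Against Cabozantinib, 1 gene of 17097 (0.00585%) differed, the antibody segment Igkv14-111, which was higher in Combination by 2.76 ± 0.33 (adjusted p = 0.0129). Before adjustment, 3853 genes had a p under 0.05. The count became 1955 without Cabozantinib replicate 3, 110 without Combination replicate 4, and 0 without Cabozantinib replicate 1, 2 or 5 or Combination replicate 2. Slc9a9, a sodium-proton exchanger of endosomes, had one of the smallest p-values, with a difference of 1.68 ± 0.29 (adjusted p = 0.0733) by the brightest of its 4 probe sets. For Serpind1 the Combination mean lay 1.25 ± 0.44 below the Cabozantinib mean (adjusted p = 0.122), for Ddc 0.89 ± 0.28 (adjusted p = 0.0961) and for Lgr5 0.56 ± 0.14 (adjusted p = 0.0763).

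Against AntiPD1, 40 genes (0.234%) differed, and 39 of them were lower in Combination. Esm1 was lower by 3.45 ± 0.24 (adjusted p = 9.16e-06), Gpihbp1 by 3.19 ± 0.31 (adjusted p = 0.000249), Cdh5 by 2.22 ± 0.23 (adjusted p = 0.000489) and Apold1 by 1.44 ± 0.17 (adjusted p = 0.00168). Esm1 read 7.82, 8.31 and 8.64 in the 3 AntiPD1 tumours, above every Placebo tumour, and Gpihbp1 read 7.84, 8.22 and 7.88. Kdr, Notch4, Apln, Emcn, a sialomucin of capillaries, and Col4a1 were lower by 2.0 ± 0.34, 1.33 ± 0.19, 1.61 ± 0.23, 2.26 ± 0.35 and 1.28 ± 0.20 (adjusted p = 0.0209, 0.00794, 0.00794, 0.0139 and 0.0157). Prnd, a prion-like protein of endothelium, was lower by 2.28 ± 0.30 (adjusted p = 0.00443), and its Combination and Placebo means were both not above background. The endothelial list had a median of -0.86 against AntiPD1 and -0.12 against Placebo, and 7 of its 27 genes were called against AntiPD1. Of the macrophage list, 0 of 25 genes were called against AntiPD1, with a median of 0.16. Retnla had a mean of 11.06 ± 0.58 (SD, n = 3) in AntiPD1 against 11.65 ± 0.40 (SD, n = 4) in Combination (adjusted p = 0.935), and a p that misses the threshold does not show that they are alike. The 40 calls became 13 without AntiPD1 replicate 2, 26 without AntiPD1 replicate 1, and 23, 18 and 21 without Combination replicates 1, 2 and 3.

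Among the 34 genes kept in every fit against Placebo, the Combination mean was the highest of the 4 groups for all 8 that rose, and the lowest for 23 of the 26 that fell. This order is given as a description, since the genes were chosen for their difference from Placebo. For Serpind1 the group means were 5.52 ± 0.69 (SD, n = 4) in Combination, 6.77 ± 0.66 (SD, n = 5) in Cabozantinib, 7.38 ± 0.68 (SD, n = 3) in AntiPD1 and 8.42 ± 0.83 (SD, n = 4) in Placebo. For Ddc they were 6.85 ± 0.43 (SD, n = 4), 7.74 ± 0.51 (SD, n = 5), 8.07 ± 0.43 (SD, n = 3) and 8.75 ± 0.40 (SD, n = 4) in that order. Each group overlapped the next in this order within their SDs, for both genes. Only Igkv14-111 of the 34 was called against Cabozantinib, and Gpihbp1, Esm1, Apold1 and Igkv14-111 against AntiPD1. Whether the pair of drugs differed from the sum of the single drugs was tested by the interaction, where 0 genes (0%) passed by limma. There 440 genes had an unadjusted p under 0.05, a smaller share than that cut-off gives when nothing differs. With 3 to 5 tumours per group, this does not show that there was no interaction. Leaving out AntiPD1 replicate 2 or 3 gave 1 gene each.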

How the data were processed

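RNA of 16 tumours had been read on Affymetrix whole-genome mouse arrays from 50 ng of total RNA each, per the labels' protocols. The authors deposited log2 values for 45141 probe sets, with RMA and affy 1.62.0 as the tools, per the submitters' processing notes. Genes were named by GEO's platform annotation: 28898 probe sets have 1 symbol, 551 several and 15588 none, and 104 controls were left out. Where a gene had several, the brightest on average across all 16 arrays stood for it, giving 17097 genes. A linear model with 4 group means was fitted with limma 3.58.1 in R 4.3.3, with Benjamini-Hochberg adjustment over all genes, and was tested on simulated data. No 2 arrays correlated above 0.994. The number of arrays limits the precision.

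Named genes are the 15 largest rises and falls whose groups did not overlap, up to 5 called members of each list with the smallest p, panels, and the 5 smallest p on each side against each single drug and in the interaction. Genes kept in every fit that this rule does not reach, and called members given to complete a short count, were chosen after their values were seen. The comparison, members and lists were chosen with earlier results of these data known. Alternatives were 2 groups only, array weights, averaged probe sets, a filter on dim genes, quantile normalisation, median centring, a trended robust variance, and each array left out. Leaving out Placebo replicate 2 and Combination replicate 4 together, and a random block of the number in the titles, were added after seeing the data. Promoters are RefSeq's, from 32851 windows, of which 22862 genes with a single window were searched.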

Additional observations from a re-analysis of the deposited data

Results flagged for a closer look

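In 19 of 350 groups tested (the 4 Placebo and the 4 Combination tumours, for each of 167 named genes and 8 list means), the highest or lowest tumour stood apart from the rest of its group by Dixon's test; chance gives about 1 in 20 groups. All values are log2 signals, and the cause was not tested. Placebo replicate 4 stood apart in Apold1 (7.0, the others 6.48 to 6.56), Folr2 (7.93, the others 5.88 to 6.20), Adipoq (7.09, the others 4.23 to 4.38). Combination replicate 4 stood apart in Mcpt2 (4.59, the others 3.94 to 4.03) and Tnfrsf9 (8.43, the others 9.36 to 9.55). Placebo replicate 1 stood apart in Amacr (7.27, the others 7.86 to 7.90), Cxcl15 (9.49, the others 10.21 to 10.33), Pdcd1lg2 (9.79, the others 8.77 to 8.80), Rb1 (8.04, the others 7.56 to 7.64), Trf (12.41, the others 12.52 to 12.53). Combination replicate 2 stood apart in Emcn (5.79, the others 6.10 to 6.14), Aen (7.77, the others 8.24 to 8.32), Atf3 (9.81, the others 9.15 to 9.19). Placebo replicate 2 stood apart in Cpa3 (5.87, the others 8.49 to 9.01), Ccl8 (9.82, the others 11.36 to 11.62), Tnfsf13 (6.97, the others 7.37 to 7.42). Placebo replicate 3 stood apart in S100a9 (8.54, the others 7.18 to 7.40) and Kif20a (9.0, the others 8.53 to 8.61). Combination replicate 1 stood apart in Ccne2 (7.46, the others 6.98 to 7.04).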

How the results depend on the processing

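Of the 167 named genes, 146 were called between Combination and Placebo, and none changed direction under any alternative run. Array weights kept 146 of these calls, a random block of the number before the point in the titles 145, quantile normalisation 144, averaged probe sets 140, a trended robust variance 139, 2 groups only 136 and median centring 133, and the filter on dim genes kept all 132 it tested. Leaving out Placebo replicate 2 kept 39, Combination replicate 2 kept 34, Placebo replicates 3 and 4 kept 65 and 58, and Combination replicates 1, 3 and 4 kept 101, 109 and 115. The count of 1771 genes became 3059 with array weights, 220 without both Placebo replicate 2 and Combination replicate 4 (chosen after seeing the data), and 42 to 2290 with each array left out. By median centring, 427 rose and 1022 fell. Against Cabozantinib, the 1 gene became 1441 with array weights, 71 with median centring, 5 without the pair of arrays, 4 with averaged probe sets, 2 with each of the dim filter, quantile normalisation and the trended variance, and 0 to 1955 with each array left out. Against AntiPD1, the 40 genes became 155 with array weights, 22 with 2 groups only, 24 with the dim filter, 24 without the pair of arrays and 13 to 50 with each array left out. The interaction gave 0 to 1 genes. The medians of the kinase, ligand, dendritic cell, basement membrane, unfolded protein and skin lists changed sign with a scaling or summary, so no direction is given for them. The cause of these shifts was not tested. No paired analysis was possible because the numbers before the point in the Combination titles recur in 0 Placebo, 0 AntiPD1 and 1 Cabozantinib title. What these numbers mark is not given, and 2 recur between Placebo and AntiPD1. With them as a random block (chosen after seeing the data), limma called 1863, 1 and 37 genes against Placebo, Cabozantinib and AntiPD1, and 0 for the interaction (421 at an unadjusted p under 0.05). Genes under 4.92 have no fold that background does not limit.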

Other observations

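Of 9 genes of red blood cells and platelets 2 fell and 1 rose, with a median of -0.13. Of 16 genes of iron and heme 3 fell, 2 rose and 10 were positive, with a median of 0.11. Among all genes 6.64% fell and 3.71% rose. The highest differences in the 2 lists were positive, 1.72 for Pf4 and 1.97 for Hp. Hbb-b2, a beta globin gene, read 9.92, 11.84, 10.52 and 11.79 in Placebo and 9.46, 8.13, 9.03 and 10.13 in Combination and fell by 1.83 ± 0.46 (limma adjusted p = 0.0309), and Hba-a1, an alpha globin gene, fell by 1.64 ± 0.49 (adjusted p = 0.046). Globin genes have near-identical copies, so a probe may read more than 1 of them. The Hbb-b2 mean was 12.05 ± 0.35 (SD, n = 3) in AntiPD1 and 7.93 ± 0.52 (SD, n = 5) in Cabozantinib, and Combination was lower than AntiPD1 by 2.86 ± 0.50 (adjusted p = 0.0273). Slc40a1, the iron exporter ferroportin, fell by 0.71 ± 0.19 and Tfrc, the transferrin receptor, by 0.58 ± 0.17 (adjusted p = 0.0354 and 0.0411). Over the 8 fits that leave out a Placebo or Combination array, Hbb-b2 kept its call in 3 and Hba-a1 in 2. Slc40a1 and Tfrc each kept theirs in 1. The 2 falls of the red cell list became 0 from the 2 groups alone and 1 with a trended robust variance. Clca2, a protein of the chloride channel regulator family, was lower than in AntiPD1 by 1.11 ± 0.11 (adjusted p = 0.000249) and fell against Placebo by 0.59 ± 0.10 (adjusted p = 0.0135), with both of those means not above background.

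Of 8 nerve genes 2 rose. Pmp22, a myelin protein that fibroblasts also make, read 8.19, 7.53, 8.63 and 8.33 in Placebo and 9.45, 9.87, 9.68 and 9.90 in Combination and rose by 1.55 ± 0.35 (adjusted p = 0.0221), and Mbp, another myelin protein, rose by 1.27 ± 0.31 (adjusted p = 0.0281). The Placebo mean of Mbp, 4.10, was not above background. The 2 nerve calls became 0 without Placebo replicate 2 or 4 or Combination replicate 2 and 1 without Placebo replicate 3. Meg3, an imprinted noncoding RNA, read 5.66, 6.19, 6.52 and 7.43 in Placebo and 7.82, 8.70, 7.61 and 8.37 in Combination and rose by 1.67 ± 0.48 (adjusted p = 0.0417). In Meg3 the mean was 8.90 in AntiPD1, above the 8.12 of Combination, and 7.17 in Cabozantinib. Meg3 kept its call in 0 of the 8 fits that leave out a Placebo or Combination array. Cd22, which restrains B cell signals, rose by 1.62 ± 0.48 (adjusted p = 0.0468), 1 of 2 among 16 B cell genes, a count that became 0 without Placebo replicate 2, 3 or 4 or Combination replicate 2 and 1 without Combination replicate 1, 3 or 4, and 1 with averaged probe sets, 1 by median centring, 1 with a trended robust variance and 4 with array weights.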
